A study of Arabidopsis with 8 samples.

Results

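AT3G55920 is a gene of the cyclophilin family of *Arabidopsis thaliana*, 1 of 13286 genes with a probe set of their own in the annotation of the ATH1 array. Its probe set, 251772_at, is 1 of 22746 on the array, Affymetrix controls left out. The gene was chosen by the difference of its signal between nNOS transgenic plants and WT plants, as earlier results of these data had shown it. Its levels in the genotypes are therefore given as a description, with no test. Tests were run on what that choice did not use: the effect of drought on the gene within each genotype, the loci around it whose codes begin with AT3G55 or AT3G56, and the other members of its family.

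Leaf RNA came from plants of ecotype Col-0 grown in soil, on 8 arrays in 4 groups of 2. The methods of the study give 2 weeks as the age at the start of the water treatments. The nNOS control and nNOS drought groups carried a gene for rat neuronal nitric oxide synthase (nNOS), driven by the constitutive cauliflower mosaic virus 35S promoter. The WT control and WT drought groups were Col-0 without the transgene. Control plants were well watered and drought plants had water withheld. The extraction label puts the harvest at 14 d under either water supply, the treatment label gives a longer time without water followed by re-watering, and the methods of the study give a shorter time, so the length of the drought is not settled here. Leaves of 20 or more seedlings went into a sample. The design text states that RNA of the lines nNOS-2 and nNOS-25 was pooled before labelling, whereas the extraction label names nNOS-25 alone, so no value can be assigned to 1 line. RNA of the transgene itself was not analysed here. The sources do not say that the replicates were grown separately, and p-values then measure only the spread between these samples. In whole leaves, fewer cells that express a gene and less RNA per cell cannot be told apart.

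Cyclophilins are peptidyl-prolyl cis-trans isomerases. They turn the bond before a proline residue, which can be a slow step when a protein folds, and many of them bind the drug cyclosporin A. Plants have a large family of them in the cytosol, nucleus, plastids and secretory pathway, and the FKBPs and parvulins are separate families with the same activity. Nitric oxide synthase makes nitric oxide from arginine, and nitric oxide acts in plants as a signal in development and in responses to stress. AT3G55920 has no symbol of its own in the annotation used here.

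The medians of all probe sets lay between 4.92 and 5.08 log2 units on the 8 arrays. The nNOS control arrays stood apart from the rest. Poly-A controls are spiked into a sample ahead of the labelling step, and the 24 probe sets for them had mean log2 signals of 8.98 and 9.40 there, against 6.04 to 6.88 on the other 6 arrays. For GAPDH, whose probe sets at the ends of the transcript serve to judge RNA quality, the 3′ signal exceeded the 5′ signal by 1.02 to 1.45 log2 units on the control arrays of both genotypes and by 0.64 to 0.87 on the drought arrays. Of 8 leaf markers only 1 could be measured by name, RCA (rubisco activase), with a mean log2 signal of 12.87 in WT control and 12.96 in nNOS control. Of the root markers, PYK10, a beta-glucosidase gene, had 7.80 in WT control and 7.44 in nNOS control, and AT5G66390 lay at 2.23 and 2.66, among dim probe sets.

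AT3G55920 gave a mid-range signal in WT plants and a dim one in nNOS transgenic plants. In WT control its log2 signal was 6.42 and 6.46, and in WT drought it was 6.32 and 6.27. In nNOS control it was 2.54 and 3.01, and in nNOS drought it was 2.31 and 2.65. All 4 WT arrays were high and all 4 nNOS arrays were low, and the genotypes did not overlap, with a gap of 3.26 log2 units between the lowest WT array and the highest nNOS array. The group means were 6.44 ± 0.03 (SD, n = 2) in WT control, 6.30 ± 0.04 (SD, n = 2) in WT drought, 2.78 ± 0.33 (SD, n = 2) in nNOS control and 2.48 ± 0.24 (SD, n = 2) in nNOS drought. In this order from high to low, WT control and WT drought differed by 0.14 and nNOS control and nNOS drought by 0.29, and neither of these neighbouring steps passed a test, as given further on. The remaining step, from WT drought to nNOS control, spans the genotypes.

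**Figure D1:**
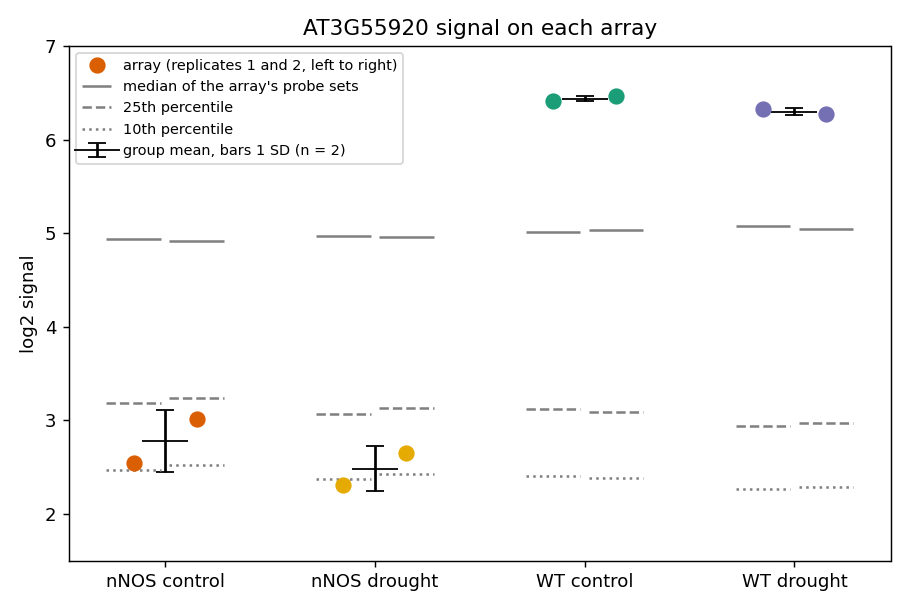
Log2 signal of AT3G55920 (vertical axis) on each of the 8 arrays in 4 groups, with group means and SDs (n = 2) and with the median, the 25th and the 10th percentile of all probe sets on the same array as grey lines. The 4 WT arrays lie between 6.27 and 6.46, above the median of their arrays, and the 4 nNOS arrays lie between 2.31 and 3.01, below the 25th percentile of theirs.

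The place of the signal among all probe sets of the same array shows the same contrast. On the WT control arrays, 68.8% of the probe sets were dimmer than AT3G55920 on each of the 2 arrays, and on the WT drought arrays 65.96% and 65.7% were. On the nNOS control arrays 11.7% and 20.2% were dimmer, and on the nNOS drought arrays 8.67% and 15.2%. The 10th percentile of these nNOS arrays lay between 2.37 and 2.52 log2 units, so that 1 of the 4 nNOS values was below the 10th percentile of its array and the other 3 were between the 10th and the 25th. No background measurement or detection call was used here, so a dim signal cannot be told from none.

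This position was rare. Of 10801 probe sets above the median of the array on all 4 WT arrays, AT3G55920 was the only 1 below the 25th percentile on all 4 nNOS arrays. In the opposite direction, 10605 probe sets were above the median on all 4 nNOS arrays, and 0 of them were below the 25th percentile on all 4 WT arrays. These limits were chosen after the values were seen, and with the 20th percentile in place of the 25th the count was 0, because nNOS control replicate 2 lay at 20.2%.

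The replicates of AT3G55920 differed more in nNOS transgenic plants than in the WT. Replicate 2 minus replicate 1 was 0.47 in nNOS control and 0.34 in nNOS drought, against 0.04 in WT control and -0.05 in WT drought. Compared with probe sets whose mean lay within 0.25 log2 units of its own in the same group, its SD exceeded that of 91.0% of 2421 probe sets in nNOS control and 93.6% of 2557 in nNOS drought. In the WT it exceeded that of 22.0% of 1601 in WT control and 34.4% of 1571 in WT drought. The median SD of those probe sets of like signal was 0.132 in nNOS control and 0.084 in nNOS drought.

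The mean difference was -3.66 log2 units for nNOS control minus WT control, which is 12.7-fold, and -3.81 for nNOS drought minus WT drought, which is 14.1-fold. Over the 4 pairings of single arrays it ran from -3.92 to -3.41 without drought and from -4.01 to -3.62 under drought. With signals below the 25th percentile of each array raised to it, the differences became -3.23 and -3.19, so their size depends on how dim signals are treated. The poly-A controls had means of 8.98 and 9.40 on the nNOS control and 6.88 on both WT control arrays, and of 6.50 and 6.65 on the nNOS drought and 6.11 and 6.04 on the WT drought arrays. Their part in the differences of AT3G55920 was not tested.

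Of all probe sets, AT3G55920 ranked first by the size of the genotype difference of the deposited values under both water supplies. With dim signals raised to the 25th percentile it kept the first place under drought (-3.19), but without drought it came second (-3.23) to AT1G66850 (-3.54). In the deposited values without drought, AT1G66850, a gene of the tapetum marker list, came next at -3.54, followed by a probe set not named here at -2.61 and AT4G27654 at 2.41. Under drought the next was another probe set not named here (249271_at), at -2.11. The middle 95% of all probe sets spanned -0.85 to 0.76 without drought and -0.60 to 0.48 under drought. The gap between the genotypes over all 8 arrays was also larger for AT3G55920 (3.26) than for the probe sets that followed it. Probe set 249271_at had a gap of 1.501, AT4G11100 of 0.81 and AT5G07870 of 0.81. AT1G66850, nearly level with AT3G55920 without drought, had a difference of -0.73 under drought.

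**Figure D2:**
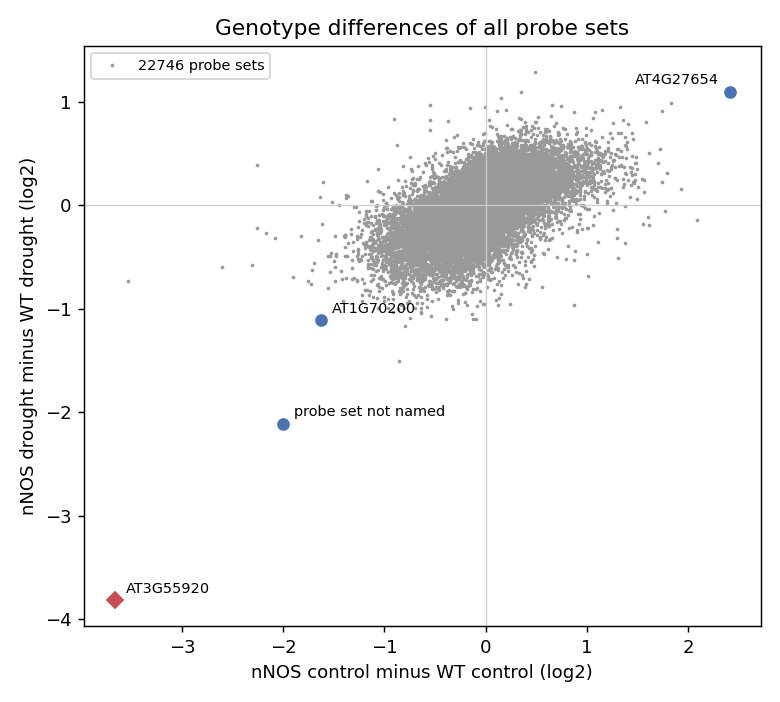
Genotype differences of all 22746 probe sets in log2 units, nNOS control minus WT control on the horizontal axis and nNOS drought minus WT drought on the vertical axis, with the 4 probe sets marked whose genotypes did not overlap and differed by at least 1 on both axes. AT3G55920 lies at -3.66 and -3.81, farther from 0 on each axis than any other probe set, a place that AT1G66850 (-3.54) takes without drought when signals below the 25th percentile are raised to it.

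A difference in 1 direction on all arrays was common, but a large one was not. All 4 nNOS arrays were below all 4 WT arrays for 2746 probe sets (12.1%) and above them for 2083 (9.16%). With both differences at least 1 in size as well, 3 were lower (0.0132%) and 1 was higher (0.0044%). The 3 lower ones were AT3G55920, probe set 249271_at and AT1G70200. Probe set 249271_at had log2 signals of 2.80 to 3.41 on the nNOS arrays and 4.91 to 5.36 on the WT arrays. AT1G70200 had differences of -1.63 and -1.11, with replicates of 4.57 and 3.72 in nNOS control. AT4G27654, the higher one, had 5.93 to 6.70 on the nNOS arrays and 3.92 to 5.11 on the WT arrays. None of these 3 other probe sets lay above the median of all WT arrays and below the 25th percentile of all nNOS arrays.

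No drought effect on AT3G55920 passed the test in either genotype. The log2 fold change was -0.14 in the WT (SE 0.16, 95% confidence interval -0.49 to 0.21, limma adjusted p = 0.589), although both WT drought arrays lay below both WT control arrays. In nNOS transgenic plants it was -0.29 (SE 0.16, 95% confidence interval -0.64 to 0.06, limma adjusted p = 0.203), and there the nNOS arrays of the 2 water supplies overlapped. In the WT the interval excludes a change of 1 log2 unit. In nNOS transgenic plants the signal was dim throughout, which limits how far a fall in RNA could show there. Over all probe sets, 10.9% passed the adjusted p of 0.05 in WT drought versus WT control and 24.9% in nNOS drought versus nNOS control. The difference between the drought effects was -0.15 (SE 0.22, 95% confidence interval -0.65 to 0.34, limma adjusted p = 0.771), where 3.64% of all probe sets passed. It is also the difference between the 2 genotype differences by which the gene was chosen. With the nNOS signals dim as well, no conclusion is drawn from it. The value in nNOS transgenic plants rests on single arrays. Without nNOS control replicate 1 it was -0.53 and passed (limma adjusted p = 0.0213), and without nNOS control replicate 2 it was -0.060.

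The loci around AT3G55920 were examined to see whether its difference was shared along chromosome 3. The annotation holds 225 loci with codes beginning AT3G55 or AT3G56, of which 211 encode proteins. Of these loci, 99 had a probe set of 1 gene, and apart from AT3G55920 they gave 99 probe sets for 98 loci. The gene that follows it in the annotation, AT3G55930, lay in the dim range in every group, with log2 signals of 1.78 to 1.89 in WT control and 1.83 to 1.93 in nNOS control. A difference of the genotypes was not detectable at this signal. On the other side, AT3G55910, which overlaps AT3G55920 in the annotation, and AT3G55900 were not measured by a probe set listed for 1 gene, and the nearest measured gene was AT3G55890, 3 genes away. It too was dim, at 2.67 and 2.73 in WT control and 2.84 and 3.06 in nNOS control (log2 difference 0.25, limma adjusted p = 0.118).

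Among the 5 nearest measured genes on each side, the genotype differences ran from -0.88 to 1.62 without drought and from -0.40 to 0.50 under drought, and their signs were mixed. Without drought 3 of the 10 passed the adjusted p of 0.05, near the 30.9% of all probe sets. EPC1, a glycosyltransferase-family gene needed for cell adhesion, fell by 0.67 (SE 0.12, limma adjusted p = 0.00247) and AT3G56010 fell by 0.88 (SE 0.14, limma adjusted p = 0.00111). JRG21, a jasmonate-regulated gene, rose by 1.62 (SE 0.14, limma adjusted p = 6.67e-05). The other 7 were AT3G55820 (-0.02), AT3G55840 (-0.07), AT3G55870 (0.57), AT3G55890 (0.25), AT3G55930 (0.05), AT3G55940 (0.41) and AT3G55960 (0.23), with adjusted p-values above 0.05. AT3G55870, with the largest value of these 7, had nNOS control arrays of 2.56 and 3.41. Under drought JRG21 alone of the 10 passed, with a difference of 0.50 (limma adjusted p = 0.0498), where 10.7% of all probe sets passed.

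**Figure D3:**
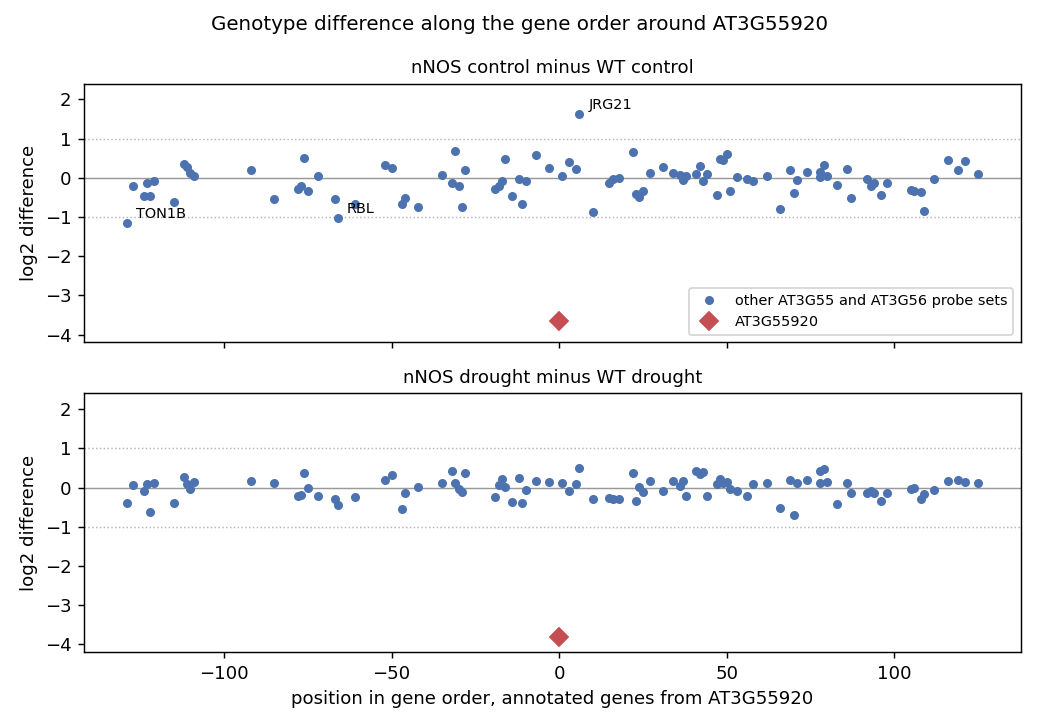
Log2 genotype differences of the probe sets of AT3G55 and AT3G56 loci (points) in the order of the annotated genes, counted from AT3G55920 at 0 (horizontal axis), without drought above and under drought below, with dotted lines at -1 and 1. AT3G55920 (diamond) lies at -3.66 and -3.81, and the other 99 probe sets lie between -1.16 and 1.62 without drought and between -0.71 and 0.50 under drought.

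Over the 99 neighbouring probe sets, the share past the tests was near that of the whole array. A call required an adjusted p no higher than 0.05 and a change of 1 log2 unit or more. In nNOS control versus WT control, 1 was called higher and 2 lower, where 2.15% of all probe sets were called (0.972% higher and 1.18% lower). In nNOS drought versus WT drought, 0 were called, where 0.0879% of all probe sets were (limma; 9 of the 99 passed the adjusted p alone). At the adjusted p alone, 33 of 99 (33.3%) passed without drought, 9 higher and 24 lower, against 30.9% of all probe sets (13% higher and 17.9% lower), and 9 of 99 (9.09%) passed under drought, against 10.7%. The median difference was -0.04 without drought and 0.01 under drought, against 0.01 and 0.04 over all probe sets. The differences of the 99 without drought had an SD of 0.423, and those of all probe sets 0.398. The split of 9 higher and 24 lower became 20 and 20 once the arrays had been centred on their medians, an alternative that moved the median of all probe sets in this comparison to 0.11. All 4 nNOS arrays were below all 4 WT arrays for 9 of the 99 and above them for 11, against 12.1% and 9.16% of all probe sets.

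Of the 4 neighbouring genes called in any comparison, 3 were called between the genotypes without drought. TON1B, which acts in the organization of cortical microtubules, had log2 signals of 5.66 and 5.46 in nNOS control and 6.57 and 6.86 in WT control, without overlap. It fell by 1.16 (SE 0.12, limma adjusted p = 0.00013), and its difference was -0.40 under drought (limma adjusted p = 0.0595). RBL (REBELOTE), a regulator of floral meristem determinacy, had 4.42 and 4.31 in nNOS control and 5.44 and 5.36 in WT control. It fell by 1.03 without drought (SE 0.10, limma adjusted p = 0.000112) and by 0.46 under drought (limma adjusted p = 0.0251). After median centring its value was -0.93, and after cyclic loess normalization RBL (-0.97) and TON1B (-0.99) both missed the fold threshold.

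JRG21, which lies 6 genes from AT3G55920, had a higher signal in nNOS control than in the other groups. Its log2 signal was 6.51 and 6.63 in nNOS control, 5.52 and 5.33 in nNOS drought, 5.16 and 4.74 in WT control and 4.98 and 4.87 in WT drought. The nNOS control arrays were high and the WT arrays of both water supplies overlapped. JRG21 fell by 1.14 after drought in nNOS transgenic plants (SE 0.14, limma adjusted p = 0.000354), whereas its change in the WT was -0.03 log2 units. The poly-A controls were also highest on the nNOS control arrays, and their part in these values was not tested.

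The largest drought effect among the neighbours belonged to AT3G56360, with the same direction in both genotypes. Without drought its signal in nNOS transgenic plants exceeded that in the WT by 0.60 (SE 0.10, limma adjusted p = 0.00126), short of the fold threshold. Its log2 signal was 11.42 on both WT control arrays and 9.18 and 9.22 in WT drought, and 12.01 and 12.02 in nNOS control and 9.31 and 9.36 in nNOS drought. It fell by 2.21 in the WT (SE 0.10, limma adjusted p = 9.25e-07) and fell by 2.68 in nNOS transgenic plants (SE 0.10, limma adjusted p = 8.21e-08). It was the only neighbour called in WT drought versus WT control, where 0.677% of all probe sets were called. In nNOS drought versus nNOS control it and JRG21 were the 2 neighbours called, both lower, where 1.97% of all probe sets were called and 1.16% were lower. AT3G55920 was called in neither.

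Of 28 other loci in the cyclophilin list, 18 were measured, by 19 probe sets. None was called with the fold threshold in any of the 4 comparisons (limma; 0 also at an unadjusted p under 0.05 with that threshold), and the largest difference between the genotypes was -0.96. At the adjusted p alone, 11 of 19 (57.9%) passed in nNOS control versus WT control, 9 lower and 2 higher, against 30.9% of all probe sets (17.9% lower and 13% higher). Their median difference was -0.36. With quantile normalization, cyclic loess normalization or median centring, 6 were lower, and the median was -0.26, -0.24 and -0.26 in that order. The shares past the adjusted p in either direction were then 42.1%, 42.1% and 47.4%, against 28.3%, 28.1% and 33.8% of all probe sets. The median was -0.46 without nNOS control replicate 1 and -0.23 without nNOS control replicate 2. It was -0.45 without WT control replicate 1 and -0.33 without WT control replicate 2. In nNOS drought versus WT drought, 2 of 19 (10.5%) passed, both lower, against 10.7% of all probe sets (7% lower), and the median was -0.10. All 4 nNOS arrays were below all 4 WT arrays for 7 of the 19 and above them for 1, against 12.1% and 9.16% of all probe sets. The poly-A controls were higher on the nNOS control than on the WT control arrays, and their part in the counts without drought was not tested. The shares over all probe sets include dim ones. They were not matched to the signal of the 19, nor to that of the FKBP and parvulin genes below.

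AT1G01940 had the largest difference among the other cyclophilins. Its log2 signal was 6.37 and 6.23 in nNOS control and 7.32 and 7.19 in WT control, and 6.62 and 6.40 in nNOS drought and 6.94 and 6.91 in WT drought. All nNOS arrays were below all WT arrays. It fell by 0.96 without drought (SE 0.12, limma adjusted p = 0.000247) and by 0.42 under drought (SE 0.12, limma adjusted p = 0.0439).

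AT4G34960 had 5.88 and 5.16 in nNOS control, 6.46 and 6.42 in WT control, 6.15 and 6.30 in nNOS drought and 6.61 and 6.69 in WT drought. Its nNOS arrays, too, were all below its WT arrays, and the nNOS control replicates lay far apart. It fell by 0.92 without drought (SE 0.19, limma adjusted p = 0.00396), and the difference under drought was -0.43 (limma adjusted p = 0.155). Unlike AT3G55920 it rose after drought in nNOS transgenic plants, by 0.71 (limma adjusted p = 0.0188). AT3G15520 was the only cyclophilin besides AT1G01940 to pass in both genotype comparisons, with falls of 0.46 without drought (limma adjusted p = 0.0069) and 0.51 under drought (limma adjusted p = 0.0157).

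The remaining cyclophilins that fell without drought were AT2G47320 (-0.79), AT1G74070 (-0.75), CYP71 (-0.44), CYP59 (-0.43), AT1G26940 (-0.37) and AT2G21130 (-0.36). CYP71 acts in chromatin and gene silencing, and CYP59 carries an RNA recognition motif and binds the tail of RNA polymerase II. Under drought the differences of these 6 were -0.34, -0.01, -0.30, 0.17, -0.20 and -0.04 in the same order, and none passed. AT5G35100 rose by 0.63 (SE 0.10, limma adjusted p = 0.00113), from 8.20 and 8.13 in WT control to 8.86 and 8.73 in nNOS control, and its difference under drought was 0.25. SQN, the plant relative of cyclophilin 40, which acts with the microRNA machinery in the change from juvenile to adult leaves, had 2 probe sets that disagreed. Of these, 1 had a difference of -0.32 (limma adjusted p = 0.136) and the other rose by 0.39 (limma adjusted p = 0.0135), both at dim signals. The other 7 probe sets, of AT4G33060 (-0.42), AT3G63400 (-0.29), AT2G38730 (-0.23), PUB49 (-0.21), AT4G32420 (0.03), AT3G22920 (0.17) and AT2G36130 (0.23), did not pass.

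**Figure D4:**
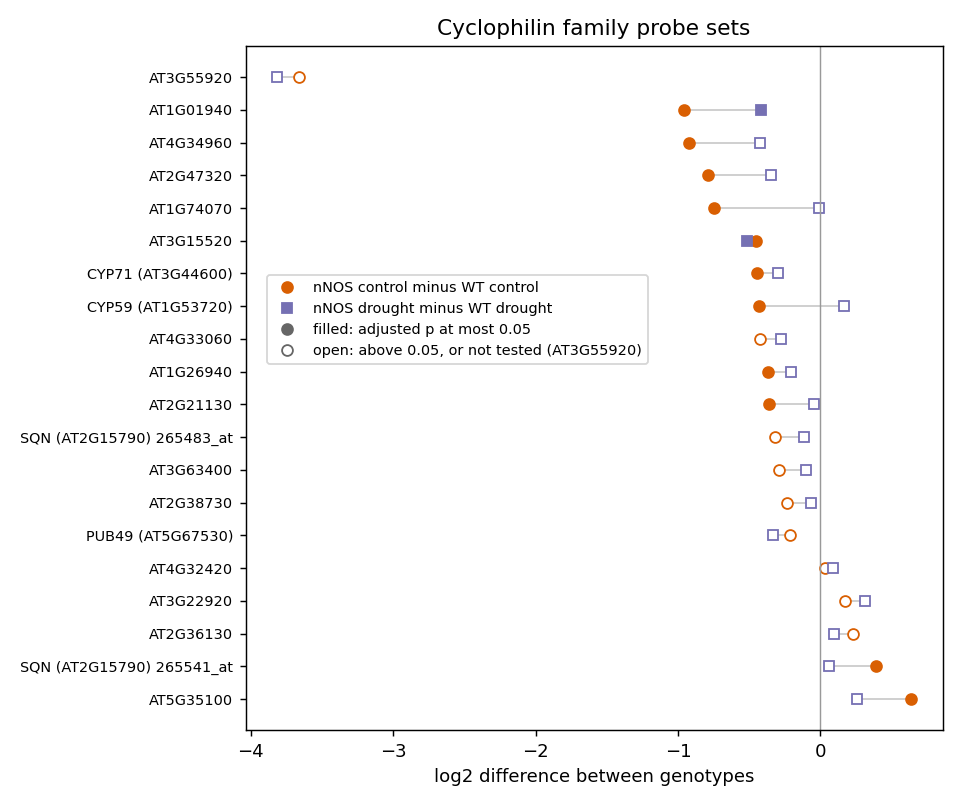
Log2 genotype differences (horizontal axis) of AT3G55920 and the 19 other cyclophilin probe sets, without drought (circles) and under drought (squares), filled where the limma adjusted p was at most 0.05. The 19 others lie between -0.96 and 0.63, whereas AT3G55920, which was not tested, lies at -3.66 and -3.81.

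In WT drought versus WT control, 0 of 19 cyclophilin probe sets passed the adjusted p (limma), where 10.9% of all probe sets did, with values from -0.33 to 0.34 (4 passed at an unadjusted p under 0.05). The count was 1 after cyclic loess normalization, where 9.8% of all probe sets passed. In nNOS transgenic plants 5 of 19 (26.3%) passed, 4 higher and 1 lower, against 24.9% of all probe sets (14% higher and 10.8% lower). The median of the 19 was 0.17. With single nNOS arrays left out it ran from 0.08 (without nNOS control replicate 2) to 0.28 (without nNOS control replicate 1). AT4G34960, AT2G21130 (0.65), CYP59 (0.58) and AT1G74070 (0.56) rose, and a probe set of SQN fell by 0.35. AT3G55920, at -0.29, did not pass.

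Of 22 FKBP and parvulin genes, 12 were measured. In nNOS control versus WT control, 5 (41.7%) passed the adjusted p, all lower, against 30.9% of all probe sets (17.9% lower), with a median of -0.32. AT2G43560 fell by 1.19 (SE 0.10, limma adjusted p = 6.55e-05) and was the only 1 called with the fold threshold, where 1.18% of all probe sets were called lower. AT1G73655 (-0.94), AT1G20810 (-0.90), AT3G55520 (-0.67), which is also 1 of the neighbouring loci, and AT3G60370 (-0.62) fell by less. The count of 5 lower was the same under quantile and cyclic loess normalization and median centring. Over all 22746 probe sets 3412, 3099 and 2972 were then lower in that order, against 4071 in the deposited values. Under drought AT2G43560 alone of the 12 passed, at -0.37 (limma adjusted p = 0.0456), where 10.7% of all probe sets passed. None of the 12 passed after median centring, where 14.8% of all probe sets did. Their median under drought was -0.14, and it ran from -0.17 to -0.08 with single drought arrays left out. After drought in nNOS transgenic plants 8 of the 12 rose, against 14% of all probe sets. That count was 6 after quantile and 4 after cyclic loess normalization. Over all 22746 probe sets 2716 and 2334 then rose, against 3191 in the deposited values. The median of the 12 was 0.45, and it ran from 0.36 to 0.51 with single nNOS arrays left out. FKBP65 (AT5G48570) rose by 1.15 in both genotypes, from log2 signals of 2.85 in WT control and 2.53 in nNOS control, which are dim.

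Of 19 chaperone and stress genes of the endoplasmic reticulum, 4 were measured. ATERDJ3B, a co-chaperone gene, fell by 0.48 in nNOS control versus WT control (limma adjusted p = 0.00972), and BZIP60, a transcription factor gene of the unfolded protein response, rose by 0.37 (limma adjusted p = 0.0424). CRT1b, which encodes a calreticulin, had 0.19, and AT5G07340 had 0.03. Of 8 reference genes 3 were measured. Without drought their genotype differences were -0.27 (AT4G34270), 0.10 (PEX4) and 0.02 (AT5G15710). None passed in either genotype comparison (limma), where 30.9% of all probe sets passed without drought and 10.7% under drought. PEX4 fell by 0.35 after drought in the WT (limma adjusted p = 0.0487), where 10.9% of all probe sets passed. Of the tapetum markers, AT1G66850 and ATA27 fell without drought by 3.54 and 1.33, and AT5G07230 had a difference of 0.12 at a dim signal.

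The probe sets whose pattern over the 8 arrays was most like that of AT3G55920 were found by Pearson's r among 4588 probe sets of 1 named gene with an SD of at least 0.25. The 8 arrays fall into 2 clusters by genotype for AT3G55920, so that r mostly measures how cleanly a probe set separates them, and it is given as a description. The 10 highest values were 0.974 to 0.989, and 220 probe sets (4.80%) had an r of at least 0.9. In order they were AT2G02730, AT5G07870, TRZ4 (a tRNase Z, which trims the end of transfer RNAs), AT1G05430, AT4G26980, AT1G30630, AT4G30620, AT5G27950, AT5G40670 and AT5G43745. None of them is in the cyclophilin list or in the AT3G55 and AT3G56 loci.

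The likeness was one of shape and not of size. AT2G02730, with an r of 0.989, had log2 signals of 3.28 to 3.48 on the nNOS arrays and 4.03 to 4.11 on the WT arrays. AT5G07870, with an r of 0.985, had 4.35 to 4.60 on the nNOS arrays and 5.41 to 5.55 on the WT arrays. For neither gene did the genotypes overlap. The differences of the 10 ran from -1.001 to -0.57 without drought and from -0.93 to -0.49 under drought, against -3.66 and -3.81 for AT3G55920. Their SDs over the 8 arrays were 0.291 to 0.523, and that of AT3G55920 was 2.01.

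**Figure D5:**
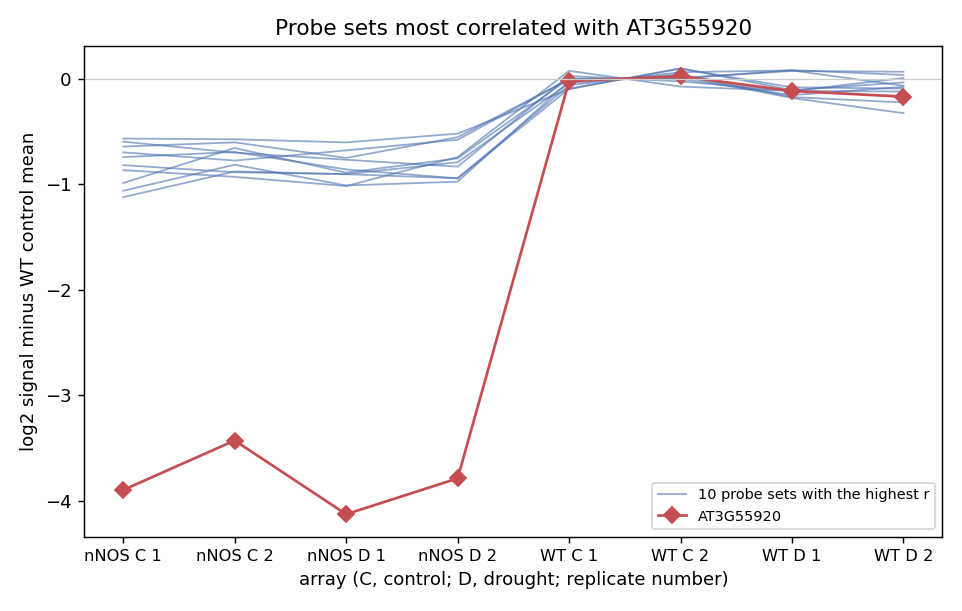
Log2 signal minus the mean of WT control (vertical axis) on the 8 arrays (horizontal axis) for AT3G55920 (diamonds) and the 10 probe sets with the highest Pearson r with it (lines). All 11 are lower on every nNOS array than on every WT array, with group mean differences of -1.001 to -0.49 for the 10 and of -3.66 and -3.81 for AT3G55920.

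At the other end, the 5 lowest values of r were -0.972 to -0.946. GRX480, a glutaredoxin gene of salicylic acid signalling, had the lowest, with differences of 1.15 without drought and 0.91 under drought. AT3G01820 (0.98 and 0.61), AT5G05600 (0.65 and 0.97), AT4G34265 (0.54 and 0.42) and AT3G02190 (0.53 and 0.45) followed.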

How the data were processed

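Leaf RNA of 8 samples in 4 groups was measured on Affymetrix ATH1 arrays. The authors scanned the arrays with a GeneChip scanner, extracted signals with Command Console software and used the affylmGUI package in R. The deposited values are their normalized log2 signals, and the normalization and probe summary are not given in the sources used here. The 2 arrays per group limit the precision.

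Using limma 3.58.1 in R 4.3.3, 4 group means were estimated from all 8 arrays on the deposited log2 scale, followed by eBayes. P-values were adjusted by Benjamini and Hochberg over 22810 probe sets, and 64 Affymetrix controls were then left out. Calls needed an adjusted p no higher than 0.05 and a change of 1 log2 unit or more. AT3G55920 was not tested between genotypes. The platform annotation lists 14016 probe sets, 13513 with 1 gene and 503 with several, and does not list 8794. Of those with 1 gene, 13436 matched a locus of RefSeq TAIR10.1, which was used for names and gene order only, since no genome build is named for the array. No sequence of the probe set or gene was used here.

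The gene, the lists and the rules were chosen with earlier results of these data known. The lists (cyclophilins, FKBPs and parvulins, endoplasmic reticulum folding, reference genes and leaf, root and tapetum markers) were written from general knowledge. Named are AT3G55920, the 5 nearest measured genes on each side, called neighbours, every measured cyclophilin, called members of the other lists with up to 4 of their smallest adjusted p-values between genotypes, the 10 most and 5 least correlated probe sets, and those with separated genotypes and both differences at least 1. Values named outside this rule are the largest differences and gaps, the markers and AT3G60370.

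Alternatives were quantile and cyclic loess normalization, median centring, eBayes with trend and robust options, fits to 4 arrays, the replicate number as a block, a mean log2 signal of at least 4, floors at the 10th and 25th percentiles, other call rules, probe sets of several genes, and each array left out in turn. Omission of both nNOS control arrays, the percentile limits, counts at the adjusted p alone under each scaling and ranks with the higher floor were added after seeing the data. The procedure was tested on simulated data of 22810 probe sets for nNOS control versus WT control. Of those changed by 1.5, 2 and 3.5 log2 units, 65 of 67, 67 of 67 and 66 of 66 were called, with 0 others. The noise was independent between probe sets and no others were changed, whereas 30.9% of all probe sets passed in the data. The simulation therefore gives no error rate for these data.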

Additional observations from a re-analysis of the deposited data

Results flagged for a closer look

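The rule looked for differences between the drought effects of the genotypes (nNOS drought minus nNOS control, less WT drought minus WT control) among the 76 named probe sets, and 7 passed a limma adjusted p of 0.05, where 3.64% of all probe sets did. Many of the 76 were named for their differences between genotypes, which use the same nNOS control and WT control arrays, so that their share cannot be read against that of all probe sets. AT3G55920 was not among them, with -0.15. Groups of 2 arrays are too small to look for outlying samples.

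AT1G66850, of the tapetum list, had drought effects of -2.03 (WT) and 0.77 (nNOS transgenic plants), a difference of 2.80 (limma adjusted p = 9.04e-05). In the same order JRG21 had -0.03 and -1.14, a difference of -1.12 (limma adjusted p = 0.0165). AT4G27654 had 1.14 and -0.18, a difference of -1.32 (limma adjusted p = 0.0371). TON1B had -0.38 and 0.38, a difference of 0.76 (limma adjusted p = 0.0407).

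The other 3 belong to the FKBP and parvulin list. AT2G43560 had -0.23 and 0.58, a difference of 0.81 (limma adjusted p = 0.0168). AT1G73655 had 0.04 and 0.72, a difference of 0.68 (limma adjusted p = 0.0419). AT1G20810 had -0.31 and 0.37, a difference of 0.68 (limma adjusted p = 0.0448). All 7 use the nNOS control arrays, on which the poly-A controls were highest, and their part in these values was not tested.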

How the results depend on the processing

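The genotype differences of AT3G55920 kept their direction under every alternative run. The gene was chosen by these differences, and its genotypes lay 3.26 log2 units apart. Their direction could therefore hardly change, and no support is drawn from it. With a floor at the 25th percentile the differences were -3.23 without drought and -3.19 under drought. With single arrays left out they ran from -3.90 to -3.43 and from -3.98 to -3.64. The drought effect in the WT did not pass under any alternative (-0.21 to -0.12, adjusted p 0.271 to 0.691), and ran from -0.17 to -0.12 with single arrays left out. That in nNOS transgenic plants ran from -0.53 to -0.060 with single arrays left out and passed only without nNOS control replicate 1 (adjusted p = 0.0213). Its other alternatives gave adjusted p-values of 0.155 to 0.405. The difference between the drought effects turned to 0.031 after quantile normalization (adjusted p = 0.958) and ran from -0.39 to 0.083 with single arrays left out; the cause was not tested.

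Dropping the fold threshold by construction lets more probe sets pass. At the adjusted p alone, 8 of the 99 neighbours (8.08%) passed for drought in the WT, against 10.9% of all probe sets. For drought in nNOS transgenic plants 29 (29.3%) passed, against 24.9%. Between the genotypes 33 (33.3%) passed without drought, against 30.9%, and 9 (9.09%) under drought, against 10.7%. Of the 19 cyclophilin probe sets, 0, 5 (26.3%), 11 (57.9%) and 2 (10.5%) passed in the same order. After cyclic loess normalization 1 neighbour was called in nNOS control versus WT control. With single arrays left out, the neighbours called were 1 to 1, 2 to 4, 2 to 6 and 0 to 0 and the cyclophilins 0 to 0, 0 to 1, 0 to 3 and 0 to 0 in that order. The highest counts in nNOS control versus WT control, 6 and 3, came without nNOS control replicate 1. Each fit with an array left out had a group of a single array, so no conclusion is drawn from its counts. After median centring, the calls at the adjusted p alone between the genotypes without drought were 4708 higher and 2972 lower over all probe sets, against 2956 and 4071. The count of probe sets above the median in the WT and below the 25th percentile in nNOS transgenic plants was 0 with the 20th percentile. Of 499 repeats for 33 results of single named genes, 405 kept their direction and side of the threshold, 94 no longer passed and 0 reversed.

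The replicate numbers were shared between groups, but the correlations of same-numbered deviations ran from -0.12 to 0.12. Such values cannot show whether same-numbered samples shared growth or processing, and the main fit did not pair them. With the replicate number as a block, the drought effect of AT3G55920 had an adjusted p of 0.537 (WT) and 0.155 (nNOS transgenic plants), and the difference between the effects 0.736, and no count of calls moved by over 1.5 times.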
